A study of Mus musculus with 6 samples.

Results

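The genes described here encode the proteins of the cytosolic ribosome, together with the paralogs that can stand in for some of them. They were taken by gene symbol: every Rpl or Rps number, the stalk genes Rplp0, Rplp1 and Rplp2, Rpsa, and the paralogs Rpl22l1, Rpl39l and Rpl3l, where the symbol stands alone on its row of the deposited table. This gave 79 genes of 22001 single-gene symbols: 43 core genes of the large subunit, 31 core genes of the small subunit and 5 paralogs (Rpl3l, Rpl10l, Rpl22l1, Rpl39l and Rps27l). Each had 1 row.

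RNA came from epithelial cells enriched with a selection kit from mammary tumors of 7-week-old female FVBN mice, and polyA libraries without strand information were sequenced. All mice carried PyMT, the polyoma middle T oncogene that gives rise to the tumors. One group of 3 mice was labelled PyMT control and the other group of 3 PyMT Elp3 cKO, in which MMTV-Cre, a driver active in mammary epithelium but not in every cell of it, removes Elp3, the catalytic subunit of the tRNA-modifying Elongator complex. Tumors of like size were taken from a different mouse for each sample.

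The ribosome is built from a large and a small subunit, each made of ribosomal RNA and a set of proteins present in 1 copy apiece, with the acidic stalk proteins as the exception. Many ribosomal protein mRNAs begin with a run of pyrimidines, the 5′ terminal oligopyrimidine or TOP motif, through which mTORC1 signalling and the protein Larp1 set their translation. Cells of fast-growing tissue devote much of their mRNA to these genes, and a few paralogs replace a core protein in testis or striated muscle.

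No comparison between genotypes could be made. The control and Elp3 cKO columns with the same number held the same value in each row, with 0 of 24308 rows differing, so the 6 columns are 3 distinct profiles with no known genotype. They are called profiles 1, 2 and 3 by their number, and values are given for each without a mean and SD. Levels are in FPKM (fragments per kilobase of exon and per unit of library size), which allows for transcript length. The sequencing depth behind them is unknown. Profile 3 stood apart in salivary gland genes: Smr3a, a salivary secretory gene, had 0.615, 0.239 and 561 FPKM, in the order of the profile numbers used throughout. Values that leave out profile 3 are therefore included in the ranges given with the processing alternatives. The epithelial keratin Krt18 was at 4232, 5010 and 4959 FPKM and all 6 epithelial markers were at 1 FPKM or more on average. In bulk RNA, fewer cells of a type and less RNA per cell cannot be told apart.

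Pyrimidine runs near the annotated start were common among the core genes. RefSeq promoter windows (build GRCm38.p6) were found for 55 of the 74 core genes and 5 of the 5 paralogs. The 30 bases around the start are shown for 8 core genes chosen because a run takes in the first base, and for all 5 paralogs, in which no such run does. The annotated first base of the transcript is base 16 of each line, reading 5′ to 3′ on the gene's strand. Capitals mark every run of at least 6 C or T bases that begins with C, as far as it lies within the bases shown.
Rplp2: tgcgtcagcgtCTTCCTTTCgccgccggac
Rpl28: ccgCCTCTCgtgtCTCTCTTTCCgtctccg
Rpl35: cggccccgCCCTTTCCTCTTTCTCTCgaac
Rpl38: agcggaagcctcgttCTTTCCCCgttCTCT
Rps6: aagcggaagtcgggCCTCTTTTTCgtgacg
Rps10: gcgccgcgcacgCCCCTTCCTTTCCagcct
Rps18: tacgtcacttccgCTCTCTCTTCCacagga
Rps27: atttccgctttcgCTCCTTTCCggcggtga
Rps27l: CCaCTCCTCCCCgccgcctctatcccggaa
Rpl22l1: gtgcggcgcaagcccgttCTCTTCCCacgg
Rpl39l: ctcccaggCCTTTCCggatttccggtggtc
Rpl3l: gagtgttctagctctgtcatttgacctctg
Rpl10l: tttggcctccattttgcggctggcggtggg

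These windows lie at chr7:141447636-141447665 (Rplp2, plus strand), chr7:4792950-4792979 (Rpl28, plus), chr2:39005117-39005146 (Rpl35, minus), chr11:114668565-114668594 (Rpl38, plus) and chr4:86857353-86857382 (Rps6, minus). The others lie at chr17:27635230-27635259 (Rps10, minus), chr17:33955651-33955680 (Rps18, minus), chr3:90213634-90213663 (Rps27, minus), chr9:66946071-66946100 (Rps27l, plus), chr3:28805493-28805522 (Rpl22l1, plus), chr16:10170213-10170242 (Rpl39l, plus), chr17:24727811-24727840 (Rpl3l, plus) and chr12:66284387-66284416 (Rpl10l, minus). Each spans the end of the promoter and the first bases of the 5′ UTR.

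A run of at least 10 pyrimidines that began with C, read on the gene's strand within 50 bases on either side of the start, was present in 33 of the 55 core promoters (60%), against 14.5% of the 17485 coding genes in the same table. Of the 5 paralogs 0 held one. Runs of at least 6 were present in 50 core promoters (90.9%) and in 4 of the 5 paralogs, against 58.4% of coding genes. The longest run that began with C was 9 bases in Rps27l, Rpl39l and Rpl3l and 8 in Rpl22l1. In Rpl22l1 T bases that the rule leaves out come directly before that run. The paralogs' count thus depends on the length asked for and on the rule that a run begins with C. The letters CTTTC, themselves all pyrimidine and often within such a run, stood on the gene's strand in the same window in 52.7% of core promoters and in 11.2% of coding genes. The first annotated base was a pyrimidine in 50.9% of the core genes and in 23.1% of coding genes. A run counted here may lie away from the first base: the longest began at position 37 in Rpl39 and at -39 in Rpl22. The share of core genes with a run over the first base was not computed. The annotated start need not be the one used in these cells, and only the letters were searched.

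**Figure D1:**
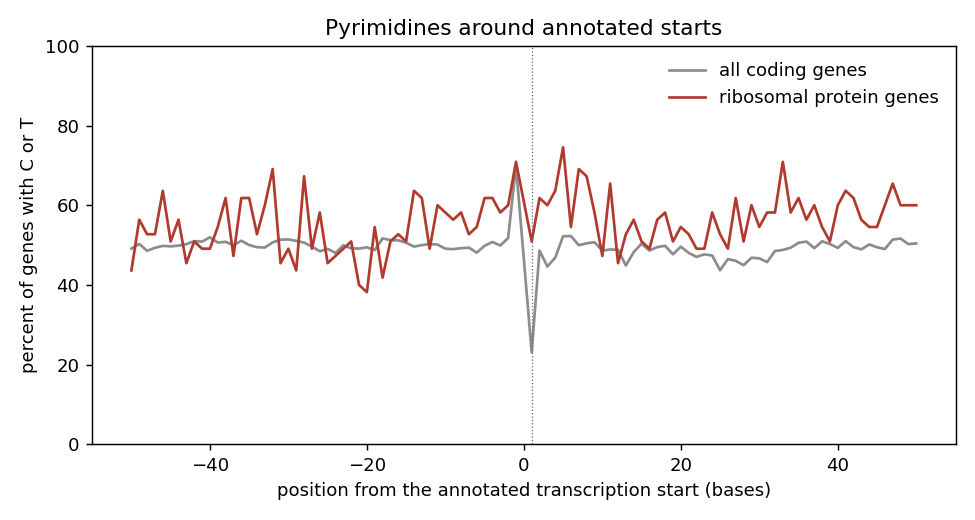
Share of genes with C or T at each position, in percent, against the distance in bases from the annotated start (dotted line), for the 55 core ribosomal protein genes with a promoter window and for all 17485 coding genes. At the first base the ribosomal protein genes stand at 50.9% and all coding genes at 23.1%.

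Other motifs were searched on both strands of the whole window, 250 bases before the start to 50 after it. CCGGAAG, a form of the Ets family site, was found in 41.8% of the core windows against 11.9% of coding genes. The GC box letters GGGCGG stood in 58.2% against 46.3%, and the TATA letters TATAAA in 9.09% against 13.3%. AAGATGGC, the core of the YY1 site, was found in 4 core windows (7.27%), against 3.23%. Core genes with a run of 10 or more pyrimidines had a median level of 1336 FPKM and those without had 1579 FPKM, with wide overlap: the quartiles were 906 to 1734 and 1059 to 1695 FPKM.

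Core ribosomal protein genes were among the most abundant mRNAs in each profile. Of the 79 genes, 76 had a mean of 1 FPKM or more, and 49% of all single-gene symbols did. The others were the paralogs Rpl3l, Rpl10l and Rpl39l. A mean of 1000 FPKM or more was reached by 57 of the 74 core genes, and by 0.45% of all symbols, which is 99 genes. By mean, 11 core genes stood at 2000 FPKM or more (7 of the large and 4 of the small subunit) and 46 between 1000 and 2000 FPKM (22 and 24). Of the 100 symbols with the highest mean, 58 were core ribosomal protein genes. The 74 core genes together made up 16.5%, 16.7% and 17.1% of summed FPKM in profiles 1, 2 and 3.

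The small subunit genes lay closer together than the large subunit genes. The median over the 31 small subunit genes was 1564, 1602 and 1629 FPKM in profiles 1, 2 and 3. The median over the 43 large subunit genes was 1352, 1379 and 1404 FPKM. The large subunit median was thus 0.865, 0.861 and 0.862 of the small subunit median, lower in each profile. The upper quartile was 1.85, 1.87 and 1.89 times the lower quartile in the large subunit, and 1.43, 1.42 and 1.40 times in the small subunit. Large subunit genes ran from 176 to 2865 FPKM over all profiles and small subunit genes from 633 to 2692 FPKM. Of the large subunit genes 14 had a mean under 1000 FPKM, and of the small subunit genes 3 did. These are spreads over genes, which are not replicates, so no test was made.

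**Figure D2:**
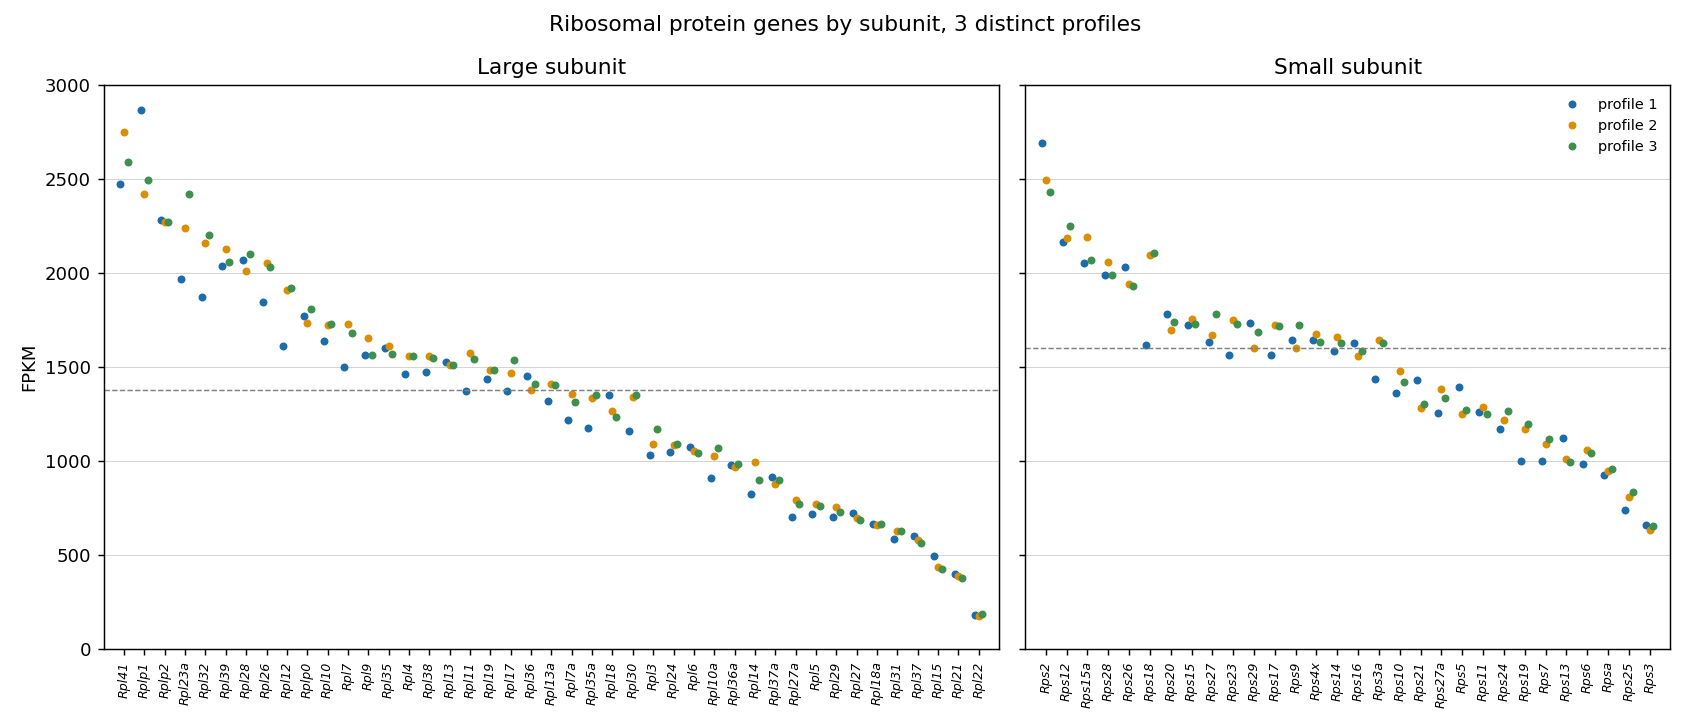
FPKM of 73 of the 74 core genes in profiles 1 (blue), 2 (orange) and 3 (green), ordered by mean within the large (left) and small (right) subunit; the dashed line is the median of all core genes of the subunit. Large subunit genes run down to Rpl22 at 176 to 185 FPKM, and the lowest small subunit gene, Rps3, stands at 633 to 657 FPKM.

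The 5 highest genes of the large subunit were Rpl41, Rplp1, Rplp2, Rpl23a and Rpl32. Rpl41, a very short basic peptide at the interface of the subunits (chr10:128548110-128549168), was at 2474, 2748 and 2591 FPKM. Rplp1, an acidic protein of the stalk that recruits elongation factors, was at 2865, 2420 and 2493 FPKM. Rplp2, its partner, was at 2283, 2271 and 2273 FPKM, the narrowest spread of any core gene, with a highest value 1.005 times the lowest. Rplp0, the scaffold that holds both stalk proteins on the ribosome, was lower than either, at 1771, 1736 and 1810 FPKM. The order of the 3 stalk genes was the same in each profile, with Rplp1 highest and Rplp0 lowest. Rplp2 was 44.3%, 48.4% and 47.7% of the sum of Rplp1 and Rplp2. Rpl23a, at the mouth of the exit tunnel where the signal recognition particle docks, was at 1967, 2236 and 2421 FPKM. Rpl32 was at 1871, 2160 and 2202 FPKM. Both were lowest in profile 1 by more than profiles 2 and 3 differed from each other.

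The low end of the large subunit was made up of 5 genes that kept their order closely. Rpl22, an RNA-binding protein on the outer face of the subunit (chr4:152325731-152334081), was at 182, 176 and 185 FPKM, the lowest core gene in each profile. Rpl21 was at 397, 385 and 378 FPKM, and Rpl15 at 494, 434 and 424 FPKM. Rpl37 was at 598, 579 and 564 FPKM. Rpl31, which lies near the exit tunnel, was at 582, 629 and 626 FPKM and changed places with Rpl37 between profile 1 and the others. Rpl22, Rpl21 and Rpl15 were the only core genes with a mean under 500 FPKM.

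Rps2, at the mRNA entry channel of the small subunit, led that subunit with 2692, 2494 and 2431 FPKM. Rps12, which in Drosophila is needed for cells with a lowered ribosome dose to be outcompeted, was at 2165, 2187 and 2247 FPKM. Rps15a was at 2052, 2192 and 2067 FPKM. Rps28, by the mRNA exit channel, was at 1989, 2060 and 1990 FPKM. Neighbours among these 3 overlapped in range and their order differed between profiles, while Rps2 stood above them in each. At the low end, Rps3, which lines the mRNA entry channel and can nick damaged DNA, was at 657, 633 and 651 FPKM. Rps25, needed in yeast and human cells for translation from several viral internal ribosome entry sites, was at 741, 809 and 833 FPKM. Rpsa, also known as the laminin receptor, was at 925, 945 and 957 FPKM. Rps6, the substrate of S6 kinase, was at 985, 1057 and 1040 FPKM, and Rps13 at 1122, 1009 and 992 FPKM. The ranges of Rps3, Rps25 and Rpsa did not overlap, while Rps6 and Rps13 changed places between profiles.

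The 7 genes named next have a known role beyond the ribosome core or a tie to disease. Their means ran from 749 FPKM (Rpl5) to 1695 FPKM (Rpl10), inside the core range of 181 to 2604 FPKM. Rpl5 and Rpl11 form a particle with 5S ribosomal RNA that holds Mdm2 and so stabilises p53. Rpl5 was at 717, 768 and 762 FPKM and Rpl11 at 1373, 1574 and 1544 FPKM, so Rpl11 was above Rpl5 in each profile. Rpl38, whose loss in mice alters the axial skeleton, was at 1472, 1557 and 1548 FPKM. Rpl10, an X-linked gene whose protein joins late and completes the large subunit, was at 1635, 1722 and 1727 FPKM. Rps19, the gene most often mutated in human Diamond-Blackfan anemia, was at 1001, 1172 and 1198 FPKM. Rpl13a, which can leave the ribosome to silence inflammatory mRNAs in human myeloid cells, was at 1321, 1408 and 1404 FPKM. Rps27a, made as a fusion to ubiquitin, was at 1252, 1382 and 1332 FPKM. Each of these 7 genes was lowest in profile 1 as deposited, where 59.5% of core genes and 40.1% of the 10770 symbols with a mean of 1 FPKM or more were, but after quantile normalization Rpl5 was lowest in profile 3, Rpl38 and Rpl10 were lowest in profile 2, and Rpl13a was equal in profiles 1 and 2.

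Profile 1 stood at one end of the range for most core genes, and profiles 2 and 3 were close to each other. On log2(FPKM + 1), core genes in profile 1 had a median absolute difference of 0.09 from profile 2 and of 0.08 from profile 3. The last pair, profiles 2 and 3, had a median difference of 0.03. Over the 763 symbols with a mean of 100 FPKM or more, the same medians were 0.16, 0.16 and 0.10. Of the 74 core genes 65 had their highest or lowest value in profile 1 (87.8%), where 74.9% of the 10770 symbols with a mean of 1 FPKM or more did. The count was 66 (89.2%) after median-ratio scaling and 64 (86.5%) after quantile normalization. The shares over all such symbols were then 74.2% and 74.3%.

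The direction depended on the scaling. As deposited, 44 core genes (59.5%) were lowest in profile 1, 25 of the large and 19 of the small subunit, where the share over all symbols was 40.1%. Highest in profile 1 were 21 core genes (28.4%), where 34.8% of all symbols were. After quantile normalization 24 core genes (32.4%) were lowest in profile 1, near the 33.9% of all symbols, so the lean towards low values was lost. Highest there were 40 core genes, and the share of all symbols highest there was not computed for that scaling. After median-ratio scaling 37 core genes (50%) were lowest in profile 1, where 35.0% of all symbols were. Differences between genes within a profile are not touched by a common factor: Rps18 and Rplp1 lay at opposite ends, low and high in profile 1. Fibroblast genes also differed in the same sense as the 44: the median of 5 markers was 15.1, 20.98 and 54.3 FPKM, and 5 of 5 were lowest in profile 1. Their part in the order of the profiles was not tested.

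The spread between profiles was narrow. The highest profile was a median of 1.08 times the lowest over the core genes, with a range of 1.005 to 1.30. Over the 763 symbols with a mean of 100 FPKM or more the median was 1.17. In none of the 74 core genes (0 genes) did the highest reach 1.5 times the lowest, while 10.7% of the 763 symbols did. The span on log2(FPKM + 1) had a median of 0.11 over core genes and 0.23 over the 763 symbols. It was under 0.1 in 35 core genes and under 0.2 in 62, and the same shares were not computed for the 763 symbols. These symbols include the core genes themselves. Without profile 1 the core median span fell to 0.033, as the distance of profiles 2 and 3 above shows.

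**Figure D3:**
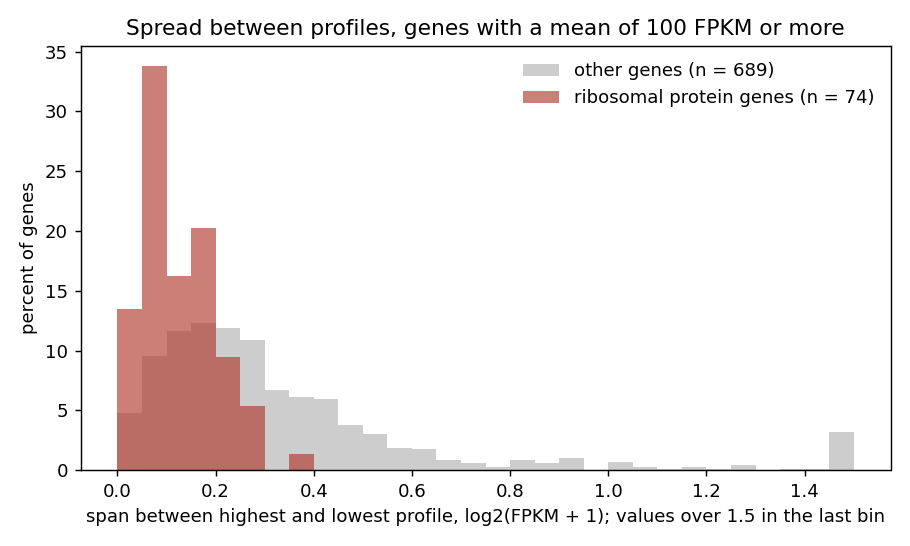
Percent of genes in each class of span between the highest and lowest profile on log2(FPKM + 1), for the 74 core genes and the other genes whose mean reached 100 FPKM. The core genes lie between 0.01 and 0.38, and values over 1.5 are drawn in the last class.

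The 5 core genes with the widest spans shared a low value in profile 1. Rps18, in the head of the small subunit (chr17:33951998-33955663), was at 1616, 2096 and 2104 FPKM, the widest span at 0.38. Rpl23a followed with 0.30. Rpl14 was at 824, 994 and 900 FPKM with a span of 0.27, and was the one of the 5 with its highest value in profile 2. Rps19 had a span of 0.26. Rpl12, at the base of the stalk, was at 1611, 1910 and 1919 FPKM with a span of 0.25. Rplp1 went the other way with 0.24, and Rpl15 with 0.22, both highest in profile 1. These 7 extremes in profile 1 kept their side under median-ratio scaling and quantile normalization. Across the 74 core genes, the log2 ratio of profile 1 to the others had a Spearman correlation of 0.01 with transcript length and 0.06 with transcript GC content, given as a description across genes that share their libraries.

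**Figure D4:**
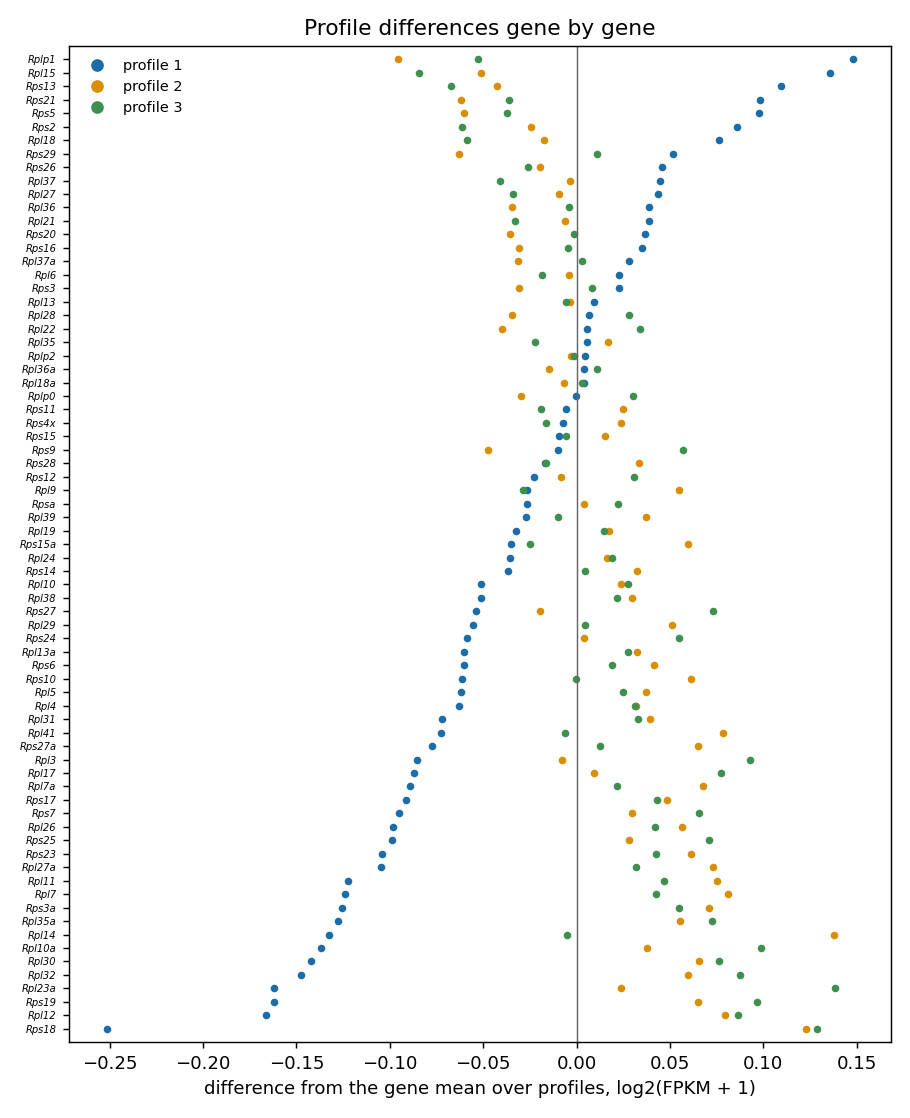
Difference of each profile from the gene's own mean on log2(FPKM + 1) for 73 of the 74 core genes, ordered by profile 1 (blue). Profile 1 lies at one end for most genes, with Rplp1 at the top and Rps18 at the bottom, while profiles 2 (orange) and 3 (green) lie near each other; which side profile 1 takes depends on the scaling.

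Among the paralogs, 2 were abundant and 3 were at or near 0. Rpl22l1 encodes a close relative of Rpl22, and in mice Rpl22 protein holds its mRNA low. Rpl22l1 (chr3:28805436-28807415) was at 317, 283 and 313 FPKM, above Rpl22 in each profile. It made up 63.5%, 61.7% and 62.8% of the pair's sum, and the ranges of the 2 genes did not overlap. It was the one pair of those measured in which the paralog exceeded its parent. The transcript used for Rpl22 is long, 2051 bases in GENCODE M21 against a core median of 845, and the sources used here do not name the annotation behind the deposited values.

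Rps27l, a paralog of Rps27 that p53 induces, was at 551, 556 and 476 FPKM. Rps27, a zinc-finger protein of the small subunit, was at 1632, 1671 and 1782 FPKM. Rps27l thus made up 25.2%, 24.9% and 21.1% of the pair. Profile 3 had the lowest Rps27l and the highest Rps27. The coding sequences of the pair were 76.2% identical over 252 bases, and the longest run their transcripts shared was 11 bases. The first 60 coding bases are shown to let the pair be compared. Capitals mark the bases that differ within the pair, 18 of 60 here.
Rps27: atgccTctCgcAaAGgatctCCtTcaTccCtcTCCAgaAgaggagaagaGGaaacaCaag
Rps27l: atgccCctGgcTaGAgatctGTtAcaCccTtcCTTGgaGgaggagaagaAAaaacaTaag

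These come from the GENCODE M21 genes at chr3:90212522-90213651 (minus strand) and chr9:66946086-66949516 (plus strand). A retrotransposed copy, Rps27rt, has no row of its own and its coding sequence is 100% identical to that of Rps27, so the value of Rps27 could hold reads of both. The deposited Rps27 row also reached 153 kb beyond the RefSeq gene and may take in other transcripts, which bears on the pair's shares.

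Rpl39l, which takes the place of Rpl39 in the exit tunnel of male germ cells, was at 0.0918, 0.277 and 1.18 FPKM. Rpl39, its X-linked parent, was at 2036, 2128 and 2060 FPKM. Rpl39l was highest in profile 3, where it was 0.0573% of the pair. Their coding sequences were 85.0% identical, with a longest shared run of 38 bases. The first 60 coding bases, shown because they are so alike, differ at 4, in capitals.
Rpl39: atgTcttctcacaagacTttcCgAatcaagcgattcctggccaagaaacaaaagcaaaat
Rpl39l: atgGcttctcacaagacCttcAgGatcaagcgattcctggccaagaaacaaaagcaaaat

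Rpl39 lies at chrX:37082520-37085402 (minus strand) and Rpl39l at chr16:10170226-10174911 (plus strand), also from GENCODE M21. Rpl10l, a retrotransposed gene that replaces X-linked Rpl10 in male meiosis (chr12:66283379-66284401), was listed at 0 in each profile. Rpl3l, the striated muscle form of Rpl3, stood at 0.0412 FPKM in profile 3 and was listed at 0 in the other two. Its parent Rpl3 was at 1032, 1089 and 1168 FPKM. Of the 5 testis markers 4 were listed at 0 in each profile and none had a mean of 1 FPKM or more, and the germ cell helicase Ddx4 was at 0.0368, 0.0221 and 0 FPKM. Of 5 striated muscle markers only myoglobin, Mb, had a mean over 1 FPKM, at 3.77, 3.60 and 4.14 FPKM.

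**Figure D5:**
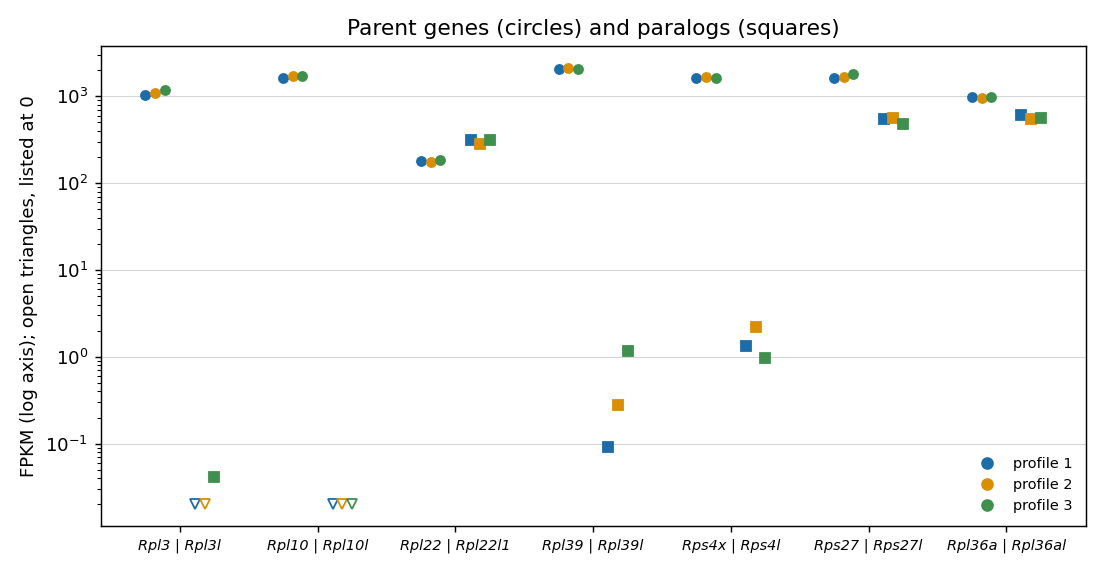
FPKM on a log axis of 7 parent genes (circles) and their paralogs (squares) in profiles 1 (blue), 2 (orange) and 3 (green), with open triangles for values listed at 0. Rpl22l1 is above Rpl22, Rps27l and Rpl36al are below their parents by less than 10-fold, and the others are at or near 0.

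Some ribosomal protein symbols had no row of their own. Of 83 symbols sought, 79 stood alone on a row, 3 only on rows that name several genes and 1 under an older symbol. Rpl8 shared a row with Commd5 at 1468, 1440 and 1417 FPKM. Rpl23 shared one with 1700001P01Rik at 905, 1005 and 976 FPKM, and Rpl34 with its pseudogene copy Rpl34-ps1 at 1524, 1598 and 1601 FPKM. All 3 rows lay within the range of the core genes, but the part of each gene cannot be told apart. Rps4l was found as Rps4y2 at 1.34, 2.19 and 0.969 FPKM, while its X-linked parent Rps4x was at 1641, 1677 and 1631 FPKM. The Rps4y2 row is long (chr6:148047416-148444352) and may take in other transcripts. Outside the symbol rule, Rpl36al was at 611, 552 and 557 FPKM, which was 38.4%, 36.4% and 36.2% of its sum with Rpl36a, itself at 979, 966 and 984 FPKM. Ribosomal proteins with other names were at core levels. Fau, a fusion that yields a small subunit protein, was at 1306, 1321 and 1370 FPKM, and Gnb2l1, which encodes the scaffold Rack1 on the small subunit, at 1332, 1374 and 1355 FPKM.

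The core genes lie on 19 chromosomes. Chromosome 7 holds 14 of them (18.9%) and 8.92% of all single-gene symbols, and the X chromosome holds 4 (5.41%) and 4.29%. Of the 74 core genes 29 (39.2%) host annotated small nucleolar RNAs, 56 in all, against 1.18% of the 21924 coding genes in GENCODE M21. Hosts and other core genes had medians of 1457 and 1466 FPKM, with quartiles of 1041 to 1813 and 1067 to 1680 FPKM. Pseudogenes that carry the gene's name exist for 58 core genes (78.4%), 295 in all, against 1.37% of coding genes, and the sources used here do not say how the authors treated reads that match several places. Across core genes the mean level had a Spearman correlation of -0.32 with transcript length and 0.24 with transcript GC content (n = 74), again as a description. For 16 core genes the deposited row reached more than 10 kb beyond the RefSeq gene, the farthest for Rps15 by 671 kb and Rpl38 by 409 kb, so such rows may take in other transcripts.

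Other genes of the translation system were measured at far lower levels, apart from those that share the TOP motif. The mitochondrial ribosome, which translates the few mRNAs of the organelle, had medians of 29.8, 27.9 and 25.5 FPKM over 47 large subunit genes and 27.0, 30.5 and 27.6 FPKM over 26 small subunit genes. Mrpl52 led the first at 126, 126 and 121 FPKM, and Mrps21 the second at 90.9, 102 and 100 FPKM. Over 44 ribosome assembly genes the medians were 35.3, 33.2 and 28.2 FPKM, with the nucleolar chaperone Npm1 highest at 817, 895 and 835 FPKM. As deposited, 31 of these 44 genes were lowest in profile 3, as were 27 of 47 and 16 of 26 mitochondrial ribosome genes. So were 14 of the 74 core genes and 31.5% of the symbols with a mean of 1 FPKM or more. All 4 endothelial markers were also lowest in profile 3, and their part in this was not tested. The counts of the assembly and mitochondrial genes were not repeated under other scalings. All 18 other mRNAs with a known TOP motif were at 1 FPKM or more, with medians of 504, 571 and 555 FPKM. Eef1a1, the factor that brings tRNA to the ribosome, was at 5288, 6327 and 6589 FPKM, and Tpt1 at 3642, 3860 and 4235 FPKM. Of the 18 genes 10 were lowest in profile 1, 5 in profile 2 and 3 in profile 3 as deposited. Over the symbols with a mean of 1 FPKM or more the shares were 40.1%, 28.3% and 31.5%. The counts of the 18 genes were not repeated under other scalings. After quantile normalization Tpt1 was equal in profiles 1 and 2. Among 12 regulators the medians were 56.1, 52.5 and 51.7 FPKM, and the translation repressor Eif4ebp1 was at 367, 370 and 376 FPKM.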

How the data were processed

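FPKM values were deposited by the authors in 1 table, with 6 sample columns and a summary column. The build was mm10 and the tools were Cuffdiff, Cufflinks 2.1.1 and TopHat2 2.0.9, per the submitters' processing notes. Their roles, the annotation and the scaling between libraries were not given in the sources used here. Each sample column was assigned by its name, and 0 were unmatched. FPKM carries no counts, so depth sets no interval. Since same-numbered columns were identical, limma was not run and 3 distinct profiles were described by values, medians and ranges. Differences were taken on log2(FPKM + 1), which understates changes of low genes. Rows without a symbol (1366) or naming several genes (514) stayed out of gene results. Members and lists were chosen with earlier results of these data known.

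Genes named were the 5 highest and lowest of each subunit, the 5 widest spans, paralogs with parents, genes of fixed roles and the top members of other lists. Rps10, Rpl28 and Rpl35 were chosen for their sequences, and Rps15 after its row length was seen. Some genes that the rule takes are not reported here. Promoters came from RefSeq GRCm38.p6, and transcripts and coding sequences from GENCODE M21, using 1 principal transcript per gene. Computation used Python 3.11.15, pandas 2.3.3, numpy 2.4.6 and matplotlib 3.10.9 and was tested on simulated data. Alternatives were median-ratio scaling, quantile normalization, added or removed rows and leaving out each replicate number.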

Additional observations from a re-analysis of the deposited data

How the results depend on the processing

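No paired analysis was possible because control and Elp3 cKO columns of equal number hold equal values. The median over large subunit genes was 1340 FPKM with the paralogs included. The ratio of large to small subunit medians was 0.853 after quantile normalization, 0.870 with rows naming several genes added and 0.829 with the paralogs included, below 1 each time. The members' share of summed FPKM was 17.4% with those rows added. Core genes lowest in profile 1 numbered 24 (32.4%) after quantile normalization, where 33.9% of all symbols with a mean of 1 FPKM or more were. The cause of these shifts was not tested. Leaving out each replicate number in turn gave large subunit medians of 1366 to 1391 FPKM and small subunit medians of 1583 to 1616 FPKM. Ratios were 0.861 to 0.863, shares 16.6% to 16.9%, and 76 members stood at 1 FPKM or more in each case. Where profile 1 stayed in, 48 to 49 genes were lowest there. Fewer profiles then compete for the lowest value, so these counts are not comparable with the 44 among 3 profiles. The share over all symbols was not computed for that setting. The median span ranged from 0.033, without replicate 1, to 0.094. The other 48 values of these summaries and all 56 of the paralog shares moved by less than the spread between profiles or by under 1.5 times for counts. Only 3 profiles limit the precision.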

Other observations

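The deposited summary column was not the mean of the 3 visible profiles. Times 9, its values ended at 4 decimals in 85.4% of 6491 rows between 10 and 1000, against at most 28.5% for other multipliers from 2 to 12. Subtracting each profile 2 times from 9 times the summary left a remainder that was below 0 in 0 rows, here divided by 3, on the assumption that 3 further values entered the column. The authors' summary gives no sample for it, so it is described and not assigned to a genotype.

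For the core ribosomal protein genes the remainder was a median of 0.879 of the mean of the 3 profiles, with a range of 0.741 to 1.05, and it was under 1 in 72 of 74 genes. Over the 763 symbols with a mean of 100 FPKM or more the median was 0.858, with quartiles of 0.744 and 0.972. The ratio was under 1 in 598 of these symbols, so the core genes lay within the bulk of abundant genes. Rps12 had the lowest core ratio at 0.741 and Rps28 the highest at 1.05. Rps27l lay well under the core range: its remainder was 206 FPKM against a mean of 528 FPKM, a ratio of 0.390. That placed it 28 from the lowest of the 763 symbols, of which 47 had a ratio under 0.5. Rpl22l1 had 195 against 304 FPKM, a ratio of 0.641 and place 89 from the lowest. Its parent Rpl22 had 165 against 181 FPKM, a ratio of 0.914. Rps27, the parent of Rps27l, had a ratio of 1.000. Both abundant paralogs were thus lower relative to their parents in the remainder than in the visible profiles, a description of a single derived value per gene with no error.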
